A study of Mus musculus with 8 samples.

Results

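Antisense transcripts are RNAs made from the DNA strand opposite a gene, over part or all of the same stretch of the genome. The transcripts described here were chosen by their level: an entry annotated as antisense on chromosomes 1 to 19 was taken if its value reached 3 in 4 or more of the 8 libraries, leaving out the imprinted *Airn*, *Kcnq1ot1* and *Peg13*. This gave 60 antisense transcripts of 877 antisense entries, 863 of them on these chromosomes, in a table of 20926 genes. Each was compared with the gene on the other strand that shares the most bases with it. Where several share equally many, the one with the highest mean value was taken. Such a gene is in the table for 56 of the 60, and for 4 (*2810001G20Rik*, *2810402E24Rik*, *2410022M11Rik* and *Gm43079*) none overlaps. In 16 cases several genes overlap the same transcript.

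RNA was sequenced from mouse molars at postnatal day 3, after the epithelium had been taken off to leave the mesenchyme. Both groups carry floxed alleles of *Ezh2*, which encodes the enzyme of Polycomb repressive complex 2 that methylates histone H3. The 4 control samples are Ezh2fl/fl, and the 4 *Osr2-Cre;Ezh2 fl/fl* samples, here also called mutant, add the Osr2KI-Cre allele, whose Cre acts in dental mesenchyme. The strain is labelled C57BL/6, while the study's methods give a mixed background. No source used here says that each sample is 1 animal, so p-values measure only the spread between these samples. Fewer cells of a type and less RNA per cell cannot be told apart in such bulk samples.

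Polycomb complexes keep many developmental regulators silent, and several of these regulators have an antisense neighbour that starts close to their own promoter. An antisense RNA can host small RNAs, share a promoter region with its neighbour, or be a byproduct of transcription.

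The deposited values are a signal scaled so that the upper quartile is about the same in each library. Depth was estimated at 50384233, 66830981, 52783256 and 61905712 reads in control libraries 1 to 4, and at 48313044, 60278712, 64149813 and 68793592 in mutant libraries 1 to 4. All values below are listed in this library order. A value of 3 stands for 157 to 231 estimated reads. Whether counting used strand is not given in the sources used here. Without strand, reads of an antisense transcript and of its partner cannot be told apart where exons coincide, so pairs whose exons coincide carry this uncertainty.

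*Ezh2* had values of 55.0, 38.3, 39.6 and 39.0 in control libraries and 35.2, 30.1, 23.2 and 36.0 in mutant libraries. Every mutant value lies below every control value, and control library 1 is the highest. This order held for 2.77% of the 14854 genes tested. The difference was -0.46 (SE 0.16) on the log2(value + 1) scale, which all differences below use. The exact permutation p was 0.0286, the smallest that 4 against 4 samples can give, and the adjusted p of 0.235 in limma missed the threshold of 0.05. With enamel genes as a covariate *Ezh2* passed it, at -0.64 with an adjusted p of 0.0274 in limma (range over its alternatives 0.0274 to 0.658). The value counts the whole gene, exons that Cre leaves in place included.

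The molar label was checked against marker genes. The 9 dental mesenchyme markers, led by *Barx1*, were all in the table and summed to 508 to 606 in control and 628 to 685 in mutant libraries. Their members differed, with *Lhx8* alone past the threshold, at 1.17 with an adjusted p of 0.00509 in limma. *Lhx6* was at 0.02, and *Barx1*, at -0.10, was the only negative one. Epithelial RNA was present too. The 6 oral and dental epithelium markers, led by *Krt5*, summed to 1801 to 3919 in control and 1700.2 to 2369 in mutant libraries. Each of the 6 had a negative difference, from -0.27 to -0.48, and none passed the threshold. The 6 markers of enamel-forming epithelium, led by *Amelx* and with *Amtn* under 1 in each library, summed to 779.6, 2357, 15628 and 28464 in control and 1323, 859.7, 11359 and 717 in mutant libraries. Control libraries 3 and 4 and mutant library 3 thus held by far the most enamel RNA. Other marker sums differed between the groups as well. The 3 bone markers summed to 277 to 366 in control and 501 to 689.8 in mutant libraries, with *Ibsp* at 82.1, 141, 119 and 114 in control libraries and 498, 331, 396 and 437 in mutant libraries. *Ibsp* alone carried this, since *Bglap* went the other way on average and *Sp7* hardly differed, and the groups overlap for both, so the sum does not show more bone cells. The 3 endothelial markers summed to 264 to 294 in control and 225 to 248.6 in mutant libraries. The 3 odontoblast markers, led by *Dspp*, summed to 1524, 2312, 3013 and 2473 in control and 874, 671, 2466 and 934 in mutant libraries, where mutant library 3 alone is within the control range. The groups overlapped for the sums of muscle, red blood cell, macrophage and Schwann cell markers. The differences between the groups below may hold changes in cell types, which were not tested.

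Sex-linked RNA differed as well. *Xist*, made from the inactive X chromosome, was at 518, 0.373, 767 and 669 in control libraries and 0.414, 1955, 2648 and 401 in mutant libraries. The Y-linked *Ddx3y* was at 46.4, 82.6, 43.5 and 31.2 in control libraries and 73.0, 0.0455, 0.0424 and 56.9 in mutant libraries. Control libraries 1, 3 and 4 and mutant library 4 held both. Whether animals were pooled is not stated. Among the 60 antisense transcripts mutant library 3 stood apart, with the highest of the 8 values for 25 (41.7%), against 20.0% of all genes tested.

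The 60 transcripts together summed to 822, 715, 702 and 652 in control and 697, 785, 736 and 763 in mutant libraries. The groups overlap, and control library 1 is the highest. The sum was 0.0688% to 0.0938% of all values of a library. *Dlx6os1*, from the *Dlx5* and *Dlx6* homeobox locus, alone made up 17.8% to 31.0% of it. The levels chose the members and are a description only. Mean values ran from 2.91 to 177, with a median of 5.28. The fourth highest library was at 3.01 for *Gm28370* and 3.05 for *BC037039*, just inside the level, and at 2.99 for *Rab26os* and 2.97 for *AC122273.2*, just outside. All 8 libraries were at the level for 41 transcripts. Another 6 reached it in all 4 mutant but fewer control libraries, 6 in all 4 control but fewer mutant libraries, and 7 in part of both groups.

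In the GENCODE annotation, 58 of the 60 could be matched. Their exons span 559 to 9296 bases in sum (median 3214), with 1 exon in 19 transcripts and 2 to 13 in 39. Of the 56 with a partner, 21 overlap it with their 3′ ends, 18 with their 5′ ends, 13 lie within it and 4 enclose it. Both starts lie within 1000 bases of each other in 10 pairs. The share of antisense exon bases that face exons on the other strand had a median of 17.97%. It was 0 in 9 transcripts and at least 50% in 6 (*9130221H12Rik*, *1110002L01Rik*, *Gm11175*, *Gm13563*, *6330418K02Rik* and *BC037039*). The exons of *Gm11175* lie wholly opposite those of *Jund*, which encodes an AP-1 factor, and its value per kilobase of exon was 11.1% of that of *Jund*.

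Per kilobase of exon, the median transcript reached 29.5% of the level of its partner over 53 pairs, and 9 transcripts were above theirs. The highest levels per kilobase were those of *Dlx6os1* (34.3), *Dlx4os* (29.0), *Brip1os* (14.0), *2810001G20Rik* (13.6) and *Gt(ROSA)26Sor* (12.4). On this scale *Dlx6os1* was at 173% of *Dlx6*, and *Dlx4os* at 67.7% of *Dlx4*. *Dnm3os* was at 134% of *Dnm3*, and *Brip1os* at 525% of *Ints2*, a subunit gene of the Integrator complex. The lowest shares were those of *Igf2os* (1.22% of *Igf2*), *A630014C17Rik* (2.05% of *Tcf7*) and *1600020E01Rik* (2.51% of *Pcbp1*).

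All 60 transcripts passed the filter on low values (at least 1 in at least 4 libraries) and were tested with limma among 14854 genes. A gene is called where its p, adjusted over all these genes, is under 0.05. Of the 60, 3 were called higher in mutant molars, where 1.56% of all genes were. By limma 0 were called lower, where 0.512% of all genes were, with 3 lower at an unadjusted p under 0.05. At that unadjusted level 9 of 60 were higher, and the shares over all genes were 8.27% higher and 4.87% lower. The difference was positive for 40 of 60 (66.7%), against 54.1% of all genes, with a median of 0.08 against 0.01. Since any 4 libraries sufficed for the level, a transcript could enter through its higher group. *Gm29100* and *A630014C17Rik* reached the level in 1 control library and *Tbx3os1* in 2, each in all 4 mutant libraries, so the shares above are not a test against all genes. Of the 41 transcripts at the level in all 8 libraries 1 (*Igf2os*) was called, and 28 (68.3%) had a positive difference.

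The calls were lost with most single libraries left out, while the differences stayed close in size, at 0.53 to 0.66 for *Gm29100*, 0.55 to 0.77 for *Tbx3os1* and 0.45 to 0.58 for *Igf2os*. Without control library 1, 2, 3 or 4, or without mutant library 2, 3 or 4, limma called 0 of the 60, with 7 to 13 at an unadjusted p under 0.05 in either direction, and without mutant library 1 it called 2 (*Gm29100* and *Igf2os*). With no filter on low values each of the 3 missed the threshold, with adjusted p of 0.0536, 0.0689 and 0.0640 in limma for *Gm29100*, *Igf2os* and *Tbx3os1*. Without the 3 libraries of most enamel RNA it called 0 (7 unadjusted), with 0.47, 0.38 and 0.43 for *Gm29100*, *Igf2os* and *Tbx3os1*, 29 of 60 differences were positive, and over all genes 8 were called higher and 0 lower, against 232 and 76 with all libraries. With enamel genes as a covariate 0 were called higher and 1, *Gm4524*, lower, with 0.55, 0.52 and 0.59 for the same 3 transcripts. The part of enamel RNA in these results was otherwise not tested.

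The 3 called transcripts overlap their partners with the 5′ ends, as do 18 of the 56. *Gm29100*, a single exon at chr1:91798528-91802937 on the minus strand, covers 1477 bases at the start of *Twist2*, which encodes a basic helix-loop-helix factor of mesenchymal cells. Its value was 2.51, 3.07, 2.16 and 2.41 in control libraries and 3.55, 4.28, 4.50 and 4.95 in mutant libraries, with means of 2.54 ± 0.386 and 4.32 ± 0.586 (SD, n = 4). All mutant values are above all control values. The difference was 0.59 (SE 0.12, 95% interval 0.32 to 0.85), with an adjusted p of 0.0388 in limma. *Twist2* was at 36.3, 30.7, 26.3 and 25.6 in control libraries and 46.3, 64.3, 39.2 and 74.8 in mutant libraries, again without overlap. Its difference was 0.86 (SE 0.20), with an adjusted p of 0.0650 in limma that missed the threshold. Without mutant library 3 *Twist2* was called, at 1.02 with an adjusted p of 0.0343 in limma (range over its alternatives 0.0343 to 0.304). Exons on the other strand face 33.5% of the *Gm29100* exon and 46.5% of the *Twist2* exon bases. The ratio of *Gm29100* to the far more abundant *Twist2* differed by -0.28 (SE 0.19), with an adjusted p of 0.762 in limma. Without strand the call of *Gm29100* may hold reads of *Twist2*.

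The bases just upstream of *Twist2* lie within the *Gm29100* exon, so this stretch is promoter on the plus strand and exon on the minus strand. It is shown because both genes had all mutant values above control. The sequence covers the 250 bases before the start, chr1:91801211-91801460 on the plus strand, from RefSeq (GRCm38.p6), with each CG dinucleotide in capitals.
Twist2 upstream: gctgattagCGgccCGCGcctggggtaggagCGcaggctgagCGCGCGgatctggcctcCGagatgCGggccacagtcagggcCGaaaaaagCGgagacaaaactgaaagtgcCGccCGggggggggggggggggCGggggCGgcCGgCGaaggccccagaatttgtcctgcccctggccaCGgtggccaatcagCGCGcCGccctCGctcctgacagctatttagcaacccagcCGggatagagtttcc
These bases hold 23 CG dinucleotides. The promoter of 300 bases, which runs 50 bases past the start, holds 25, and 18.4% of all 32851 promoters hold at least as many. A CG is in 94.6% of promoters, with a median of 7.

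*Tbx3os1* has 11 exons at chr5:119570130-119671365 on the minus strand and overlaps the first 697 bases of *Tbx3*, which encodes a T-box factor of limb and heart development. Its value was 3.18, 3.26, 2.53 and 1.70 in control libraries and 4.35, 4.95, 5.27 and 4.84 in mutant libraries, with means of 2.67 ± 0.722 and 4.85 ± 0.383 (SD, n = 4). The groups do not overlap, and control library 4 is the lowest. The difference was 0.69 (SE 0.15, 95% interval 0.36 to 1.03), with an adjusted p of 0.0499 in limma, barely under the threshold. It was called in 2 of 18 alternatives (adjusted p 0.0353 to 0.389), and not with a pseudocount of 0.1, no pseudocount or no filter. *Tbx3* was at 50.7, 44.6, 40.6 and 36.8 in control libraries and 43.2, 53.4, 36.1 and 51.7 in mutant libraries, and its groups overlap widely. Its difference was 0.09 (SE 0.14, 95% interval -0.22 to 0.40), with an adjusted p of 0.890 in limma, and -0.09 with enamel genes as a covariate. The ratio of *Tbx3os1* to *Tbx3* differed by 0.61 (SE 0.16), with an adjusted p of 0.184 in limma over all pairs, so unequal change did not pass the test. Of the *Tbx3os1* exon bases 3.63% face exons on the other strand.

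Because *Tbx3os1* was called and its partner was not, its own promoter is shown, chr5:119671459-119671758 on the minus strand, from RefSeq (GRCm38.p6), whose start lies 143 bases from that of the table. The promoter lies within exon 1 of *Tbx3*, so this stretch is promoter on the minus strand and exon on the plus strand. The sequence runs from 250 bases before the start to 50 after it, with each CG dinucleotide in capitals.
Tbx3os1 promoter: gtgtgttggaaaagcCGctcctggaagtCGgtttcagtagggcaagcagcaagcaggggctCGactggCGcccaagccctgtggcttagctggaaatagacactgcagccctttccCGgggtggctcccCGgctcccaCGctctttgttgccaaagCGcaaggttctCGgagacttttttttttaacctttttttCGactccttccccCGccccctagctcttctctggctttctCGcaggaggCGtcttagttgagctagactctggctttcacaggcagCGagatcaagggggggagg
It holds 14 CG dinucleotides, and 36.3% of all promoters hold at least as many. The letters TATAAA are on neither strand of this promoter or of the 300 bases of *Twist2*, and are in 13.6% of all promoters.

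*Igf2os*, with 5 exons at chr7:142659693-142670356 on the plus strand, overlaps 7124 bases of *Igf2*, which encodes an imprinted fetal growth factor. Its value was 4.03, 5.02, 3.95 and 3.94 in control libraries and 5.76, 6.53, 7.34 and 6.15 in mutant libraries, with means of 4.23 ± 0.523 and 6.44 ± 0.672 (SD, n = 4). Every mutant value is above every control value, and control library 2 is the highest of its group. The difference was 0.51 (SE 0.11, 95% interval 0.27 to 0.75), with an adjusted p of 0.0458 in limma. *Igf2* was at 226, 545, 335 and 442 in control libraries and 534, 519.7, 731 and 412 in mutant libraries. These groups overlap, and the difference of 0.55 (SE 0.26) had an adjusted p of 0.436 in limma. With 1 library left out the difference of *Igf2* ran from 0.31 to 0.74. Exons on the other strand face 23.2% of the *Igf2os* exon bases, and its ratio to the far more abundant *Igf2* differed by -0.04 (SE 0.23), so without strand its call may hold reads of *Igf2*.

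**Figure D1:**
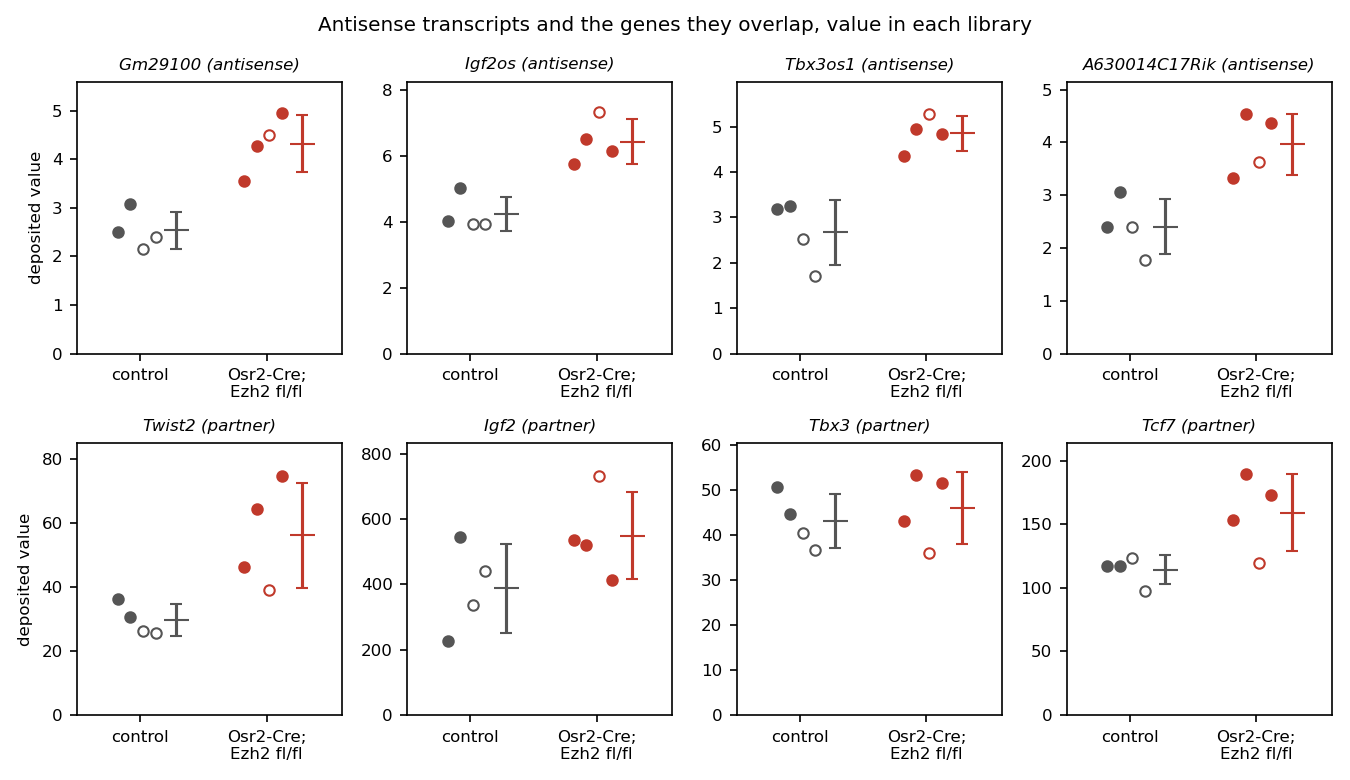
Deposited value (vertical axis, from 0) of 4 antisense transcripts (top) and of the genes they overlap (bottom) for both groups. Each point is 1 library, open points are the 3 libraries of most enamel RNA, and bars are the mean with SD (n = 4); the groups are apart for the 4 antisense transcripts and for *Twist2*, and overlap for *Tbx3*, *Igf2* and *Tcf7*.

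*A630014C17Rik*, which overlaps the 5′ end of *Tcf7*, a gene for an effector of Wnt signaling, was at 2.40, 3.06, 2.39 and 1.77 in control libraries and 3.32, 4.53, 3.64 and 4.38 in mutant libraries. The groups do not overlap, but the difference of 0.55 (SE 0.14) had an adjusted p of 0.0854 in limma. *Tcf7* was at 118, 118, 124 and 97.8 in control libraries and 153, 190.0, 119.9 and 173 in mutant libraries, and mutant library 3 falls within the control range. Its difference of 0.46 (SE 0.14) had an adjusted p of 0.154 in limma, and without mutant library 3 it was called, at 0.59 with an adjusted p of 0.0350 in limma (range over its alternatives 0.0350 to 0.367).

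In all, 6 of 60 transcripts had each mutant value above each control value, and 0 had each mutant value below. Of these, *Gm29100*, *Tbx3os1* and *A630014C17Rik* entered through the mutant libraries. Among the 41 transcripts at the level in all 8 libraries 3 (7.32%) had this order and 0 the reverse, against 5.76% and 2.77% of all genes tested. Beside the 4 described above, the 6 include *2810001G20Rik* and *Gm37422*. *2810001G20Rik* varied least of the 60 between libraries of a group (pooled SD 0.04 on the log2 scale), at 13.9, 13.3, 12.6 and 13.3 in control libraries and 15.4, 15.2, 15.8 and 15.2 in mutant libraries. The margin is narrow, and the difference of 0.20 (SE 0.07) had an adjusted p of 0.234 in limma. *Gm37422*, the antisense partner of the methyltransferase gene *Smyd2*, was at 7.07, 7.49, 7.94 and 7.73 in control libraries and 8.92, 8.18, 14.7 and 8.38 in mutant libraries. Mutant library 3 is far above the rest, and the adjusted p was 0.457 in limma for a difference of 0.33, or 0.15 without that library.

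Of the 56 overlapping genes 55 passed the filter, all but *Gapdhs*. Of these 55, 2 were called higher and 1 lower, and 10 were higher and 7 lower at an unadjusted p under 0.05 (18.2% and 12.7%). Over all genes 1.56% were called higher and 0.512% lower, and 8.27% and 4.87% were at the unadjusted level. The median difference of the 55 was 0.01, with 31 positive (56.4%, against 54.1% of all genes). Each mutant value was above control for 8 (14.5%) and below for 5 (9.09%), against 5.76% and 2.77% of all genes. The number called higher was 0 without control library 2, 3 or 4 or mutant library 2 or 4, 1 without control library 1, and 4 without mutant library 3. The number called lower was 2 without control library 1 or mutant library 1. With 1 library left out limma found 13 to 19 overlapping genes at an unadjusted p under 0.05 in either direction. Without the 3 libraries of most enamel RNA it called 0 in either direction (12 unadjusted), with differences of 0.68 for *Dnm3*, 0.31 for *Ssbp2* and -0.97 for *Hist2h2aa2*, called with all libraries.

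*Dnm3*, which encodes a dynamin GTPase and holds *Dnm3os* within its span, had the largest positive difference of the overlapping genes. It was at 74.9, 53.9, 46.1 and 42.7 in control libraries and 86.8, 127, 102 and 97.2 in mutant libraries, with means of 54.4 ± 14.5 and 103 ± 17.3 (SD, n = 4). The groups do not overlap, and *Dnm3* rose by 0.93 (SE 0.18, 95% interval 0.54 to 1.33), with an adjusted p of 0.0286 in limma. Its call was lost without control library 2, 3 or 4 or mutant library 2, 3 or 4, with adjusted p of 0.0710 to 0.112 in limma, while its difference stayed at 0.83 or more with 1 library left out. *Dnm3os* was at 32.3, 33.9, 24.7 and 22.1 in control libraries and 34.4, 32.5, 59.5 and 34.4 in mutant libraries. Mutant library 3 is far above the other mutant libraries, which lie close to control libraries 1 and 2. The difference of *Dnm3os* was 0.47 (SE 0.20), with an adjusted p of 0.363 in limma, and 0.27 without mutant library 3. The ratio of *Dnm3os* to *Dnm3* differed by -0.46 (SE 0.22), with an adjusted p of 0.569 in limma.

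*Dnm3os*, a single exon at chr1:162217623-162225550 on the plus strand, is the 1 transcript of the 60 that holds miRNAs of the RefSeq table on its own strand. It hosts *Mir199a-2* and *Mir214*, and their mature miRNAs are printed because they are products of this transcript, from RefSeq (GRCm38.p6), 5′ to 3′, with the seed (bases 2 to 8) in capitals.
mmu-miR-199a-5p: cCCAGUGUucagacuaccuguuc
mmu-miR-199a-3p: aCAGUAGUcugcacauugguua
mmu-miR-214-5p: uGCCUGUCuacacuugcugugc
mmu-miR-214-3p: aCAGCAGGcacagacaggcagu
In this order they lie at chr1:162217844-162217866, chr1:162217883-162217904, chr1:162223397-162223418 and chr1:162223438-162223459. Their seeds differ from each other, and 1, 2, 0 and 1 other mature miRNAs of the table share them. Levels of the mature miRNAs were not analysed here.

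**Figure D2:**
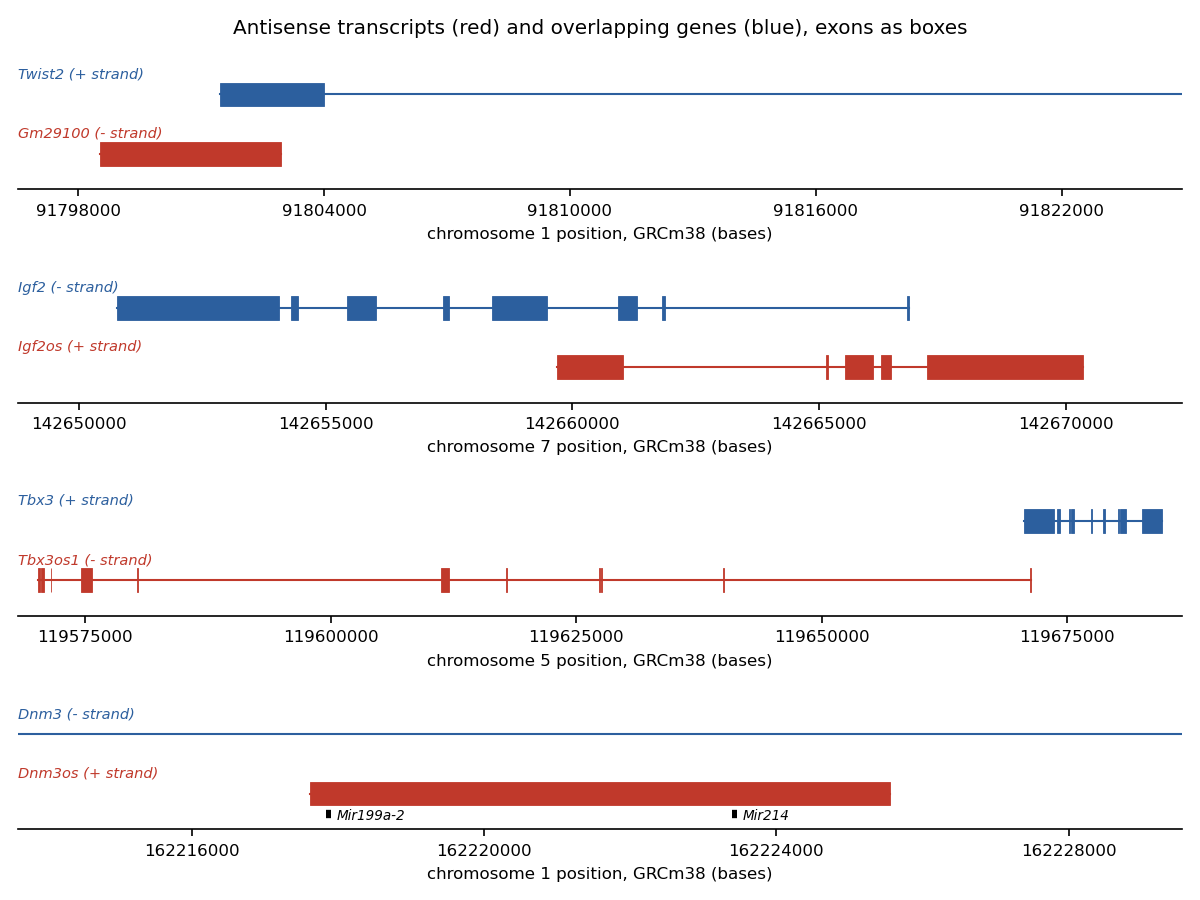
Exons (boxes) and introns (lines) of *Gm29100*, *Igf2os*, *Tbx3os1* and *Dnm3os* (red) and of the genes they overlap (blue), along the chromosome in bases of GRCm38, with black bars for the miRNA genes in *Dnm3os*. *Gm29100*, *Igf2os* and *Tbx3os1* overlap their partners at the 5′ ends, *Dnm3os* lies in an intron of *Dnm3*, and *Twist2* and *Dnm3* run past the window.

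*Ssbp2*, which encodes a cofactor of LIM-homeodomain complexes, was at 34.1, 35.9, 33.9 and 35.5 in control libraries and 41.4, 43.6, 47.2 and 46.1 in mutant libraries, with means of 34.8 ± 1.01 and 44.6 ± 2.61 (SD, n = 4). The groups are apart, and *Ssbp2* rose by 0.35 (SE 0.07), with an adjusted p of 0.0312 in limma. Its call was lost without control library 1, 2, 3 or 4 or mutant library 2 or 4, with adjusted p of 0.0711 to 0.146 in limma, while its difference stayed at 0.32 to 0.38 with 1 library left out. Its antisense partner *4833422C13Rik* was at 7.09, 7.93, 6.10 and 5.46 in control libraries and 6.64, 6.61, 9.82 and 6.54 in mutant libraries. Mutant library 3 stands above the rest, the groups overlap, and the difference was 0.13 (SE 0.15). With 1 library left out the difference of *4833422C13Rik* ran from 0.00158 to 0.21.

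The histone gene *Hist2h2aa2*, which overlaps *Gm20632*, was at 2.77, 2.72, 3.82 and 3.57 in control libraries and 0.920, 1.22, 1.56 and 0.650 in mutant libraries, with means of 3.22 ± 0.557 and 1.09 ± 0.392 (SD, n = 4). The groups do not overlap, and the difference was -1.02 (SE 0.15), with an adjusted p of 0.0101 in limma. It reached the filter value of 1 in all 4 control but 2 mutant libraries, so it passed through its higher group. With no filter it was called as well, with an adjusted p of 0.0113 in limma. It stayed called without each library in turn. *Gm20632* was at 7.67, 11.6, 8.31 and 10.2 in control libraries and 11.9, 7.54, 12.5 and 8.09 in mutant libraries. These groups overlap, with a difference of 0.06 (SE 0.18). *Hist2h2aa2* has a near-identical copy, *Hist2h2aa1*, so its values are uncertain where counting could split reads between them. *Hist2h2aa1* was at 0.704, 0.400, 0.426 and 1.38 in control libraries and 1.01, 0.533, 1.25 and 0.794 in mutant libraries. This copy did not pass the filter, and its groups overlap. Exons on the other strand face 100% of the *Hist2h2aa2* exon bases, so without strand its values may hold reads of that strand.

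Unequal change within a pair was tested on the log2 ratio of both genes, over all 1763 opposite-strand pairs of tested genes. Of the 55 pairs described here limma called 0, against 0.624% of all pairs. At an unadjusted p under 0.05 there were 9 (16.4%, against 9.59%), 5 with a higher and 4 with a lower ratio. The ratio of *Gm20632* to *Hist2h2aa2* was higher by 1.09 (SE 0.21), with an adjusted p of 0.0531 in limma, and 0.0521 with no filter. It rests on values of *Hist2h2aa2* near the filter value in mutant libraries. It was called with a pseudocount of 0.1, at 1.59 with an adjusted p of 0.0366 in limma (range over its alternatives 0.0328 to 0.701). The ratio varied less between libraries of a group than the antisense transcript did in 22 of 55 pairs (40.0%), and less than the lower gene in 27.5% of all pairs.

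**Figure D3:**
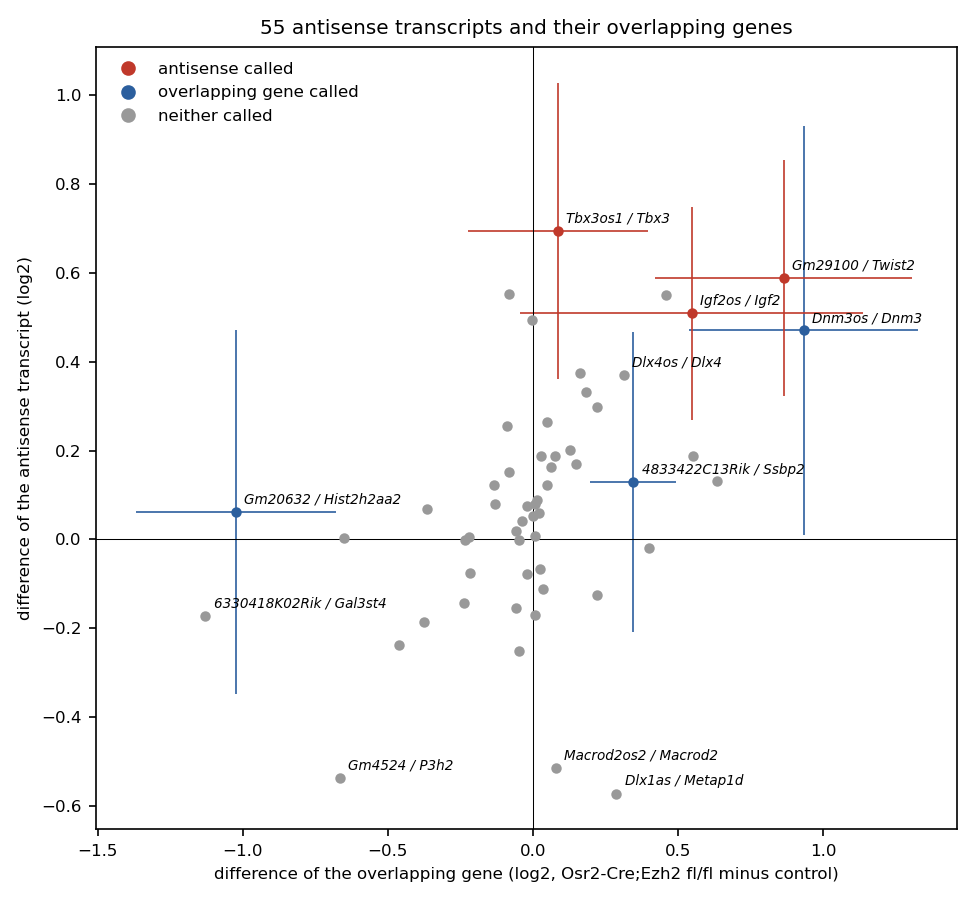
Difference on the log2(value + 1) scale, mutant minus control, of 55 antisense transcripts (vertical axis) against that of the genes they overlap (horizontal axis), with 95% intervals where either gene was called. *Tbx3os1* at 0.69 has its partner at 0.09, and *Gm20632* at 0.06 has its partner at -1.02.

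Antisense transcripts of the distal-less homeobox genes, which pattern the jaw and teeth, were among the most abundant. *Dlx6os1* was at 255, 173, 183 and 129.9 in control libraries and 132, 224, 131 and 192 in mutant libraries. The groups overlap, and the difference of -0.12 (SE 0.23) was 0.04 without control library 1. *Dlx6* was at 42.0, 46.7, 42.7 and 42.3 in control libraries and 59.5, 47.4, 48.1 and 48.8 in mutant libraries. Its groups are apart by a narrow margin, and the difference of 0.22 (SE 0.09) had an adjusted p of 0.292 in limma.

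*Dlx4os* was at 49.0, 43.5, 42.2 and 33.4 in control libraries and 45.5, 62.0, 48.8 and 62.2 in mutant libraries. *Dlx4*, with which it shares 1212 bases, was at 146, 122, 108 and 125 in control libraries and 144, 171, 140.2 and 167 in mutant libraries. Both overlap between the groups, with differences of 0.37 (SE 0.14) and 0.31 (SE 0.10) and adjusted p of 0.275 and 0.205 in limma. *Dlx1as* had the lowest difference of the 60, -0.57 (SE 0.21), at 14.6, 10.9, 16.1 and 8.32 in control libraries and 6.24, 9.92, 6.79 and 8.81 in mutant libraries. The groups overlap, and the adjusted p was 0.251 in limma. It shares 8741 bases with the aminopeptidase gene *Metap1d* (difference 0.29) and 5869 with *Dlx1* (difference -0.20), neither of which was called. With 1 library left out *Metap1d* ran from 0.16 to 0.36.

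*Gm4524*, antisense to the collagen prolyl hydroxylase gene *P3h2*, was at 7.25, 6.46, 5.15 and 5.33 in control libraries and 3.09, 5.32, 3.11 and 4.10 in mutant libraries. Mutant library 2 falls within the control range, and the difference of -0.54 (SE 0.16) had an adjusted p of 0.158 in limma. *P3h2* was at 38.7, 32.9, 32.2 and 26.4 in control libraries and 16.0, 30.7, 13.6 and 23.4 in mutant libraries, with a difference of -0.67 (SE 0.23). Exons on the other strand face 49.0% of the *Gm4524* exon bases, so without strand both may hold the same reads. With enamel genes as a covariate *Gm4524* was called, at -0.70 with an adjusted p of 0.0368 in limma (range over its alternatives 0.0368 to 0.505). *P3h2* was then at -0.91 with an adjusted p of 0.0383 in limma (range over its alternatives 0.0383 to 0.691).

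*Macrod2os2*, within *Macrod2*, was at 4.42, 3.71, 4.11 and 3.90 in control libraries and 2.55, 2.29, 1.54 and 4.18 in mutant libraries. Mutant library 4 alone reaches control values, and the difference was -0.51 (SE 0.19), beside 0.08 for *Macrod2*. *Gt(ROSA)26Sor*, from a locus often used for transgenes, had a difference of -0.25 (SE 0.25), beside -0.05 for *Thumpd3*. With 1 library left out *Gt(ROSA)26Sor* ran from -0.43 to -0.054. *Gm16136* had -0.24 (SE 0.20), or -0.37 to -0.0995 with 1 library left out, beside -0.46 for *Grhl2*, which encodes an epithelial transcription factor. None of these was called. The oral and dental epithelium markers, like *Grhl2*, were lower on average in mutant libraries, none past the threshold. Whether this bears on *Gm16136* or *Grhl2* was not tested.

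*1500015A07Rik*, antisense to *Afap1l1*, was at 4.61, 3.23, 3.37 and 8.43 in control libraries and 9.67, 6.14, 10.8 and 4.02 in mutant libraries. The groups overlap, with a difference of 0.55 (SE 0.32) beside -0.08 for *Afap1l1*. Other abundant transcripts had small differences, none called. *Brip1os* had -0.17 and its partner *Ints2* 0.01. *4933431E20Rik* had 0.17 and *Gstm5* 0.15, *Rab10os* 0.15 and *Rab10* -0.08. *6330403L08Rik* had 0.00 and *Pdgfa*, a growth factor gene, -0.22, and *1700052K11Rik* -0.16 and *Tlk2* -0.06. With 1 library left out *Brip1os* ran from -0.27 to -0.031, *1700052K11Rik* from -0.22 to -0.064 and *4933431E20Rik* from 0.11 to 0.26. Of those at the edge of the level, *Gm28370* had 0.19 and *BC037039* 0.07, beside 0.07 for *Gm20498* and -0.02 for *Pcdhgb6*. *BC037039* shares 2205 bases with *Pcdhgb6* and as many with other *Pcdhg* genes, among which *Pcdhgb6* has the highest mean. Exons on the other strand face 0% of the *Pcdhgb6* exon bases.

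The least even of the 60 was *Gm27177*, with a pooled SD of 1.06 on the log2 scale, against a median of 0.226 for the 60 and 0.154 for all genes tested. It was at 5.93, 8.29, 10.3 and 19.5 in control libraries and 17.99, 1.79, 18.8 and 13.3 in mutant libraries, and its groups overlap. Its partner *Loxl2*, a lysyl oxidase gene, was at 62.0, 86.5, 111 and 170.3 in control libraries and 72.2, 77.9, 134 and 69.5 in mutant libraries, highest in the 3 libraries of most enamel RNA. *Gal3st4*, the partner of *6330418K02Rik*, was at 4.23, 7.60, 30.8 and 46.3 in control libraries and 4.19, 4.12, 19.8 and 4.33 in mutant libraries, highest in the same 3 libraries. The part of enamel RNA in these values was not tested. *Gm27177*, *Gm37422* and *Gal3st4* were chosen after their values were seen.

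Of 27 listed non-coding transcripts of developmental regulators, most named as antisense, 9 are in the table and 5 were tested, 3 of them among the 60. Among the 9, *Fendrr* and *Sox2ot* are annotated as processed transcripts and *Tbx3os2* as a lincRNA. *Dlx4os* is not in the list. In limma 1 of the 5 tested (*Tbx3os1*) was called higher and 0 lower, with a median difference of 0.05, against 0.01 for all genes. At an unadjusted p under 0.05 there were 3, *Fendrr* among them. The nuclear exosome breaks down much promoter and antisense RNA. Of 20 genes of it and its cofactors limma called 0, with 1 at an unadjusted p under 0.05 and a median of 0.04. Sense and antisense RNA can pair, and of 24 tested genes that process or sense double-stranded RNA limma called 0, with 2 at an unadjusted p under 0.05 and a median of 0.02. Over all genes 2.07% were called and 13.1% had an unadjusted p under 0.05 in either direction. Whether these short lists differ from those shares was not tested.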

How the data were processed

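RNA-seq values of 8 libraries (4 per group) were analysed, and none was left out of the main test. The study's methods give 4 samples per group but also speak of 3 sequenced pairs, which the 8 labelled libraries do not explain. The deposited values are a signal that the authors scaled per library, and they carry no gene length factor. The study's methods name TopHat and RPKM, and the submitters' processing notes name STAR 2.5.3a, CASAVA 1.8.2, Partek and mm10. The smallest value of a library was read as 1 read added to each gene, which gave the estimated reads. Of low values 61.2% were whole multiples of it within 0.01, so no count test was run.

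Overlaps used the coordinates of the table, exons came from GENCODE M21 and sequences from RefSeq (GRCm38.p6), where 22 of the 60 transcripts have a promoter. Tests used limma 3.58.1 in R 4.3.3, with a trend, on log2(value + 1) over 14854 genes or, for ratios, 1763 pairs, with Benjamini-Hochberg adjustment. Two-sided exact permutation tests ran over 70 arrangements. The models were tested on simulated data, whose outcomes are not reported here, so no result rests on them. Tables were made with Python 3.11.15 and pandas 2.3.3.

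Named were transcripts that were called, had a called partner or ratio, had the 10 highest means or the 5 largest differences each way, or lay at the edge of the level, 2 on each side. Members and lists were chosen with earlier results of these data known. Alternatives were other pseudocounts, filters and scalings, no trend, the replicate block, a covariate from *Amelx*, *Ambn* and *Enam*, each library left out, transcripts at the level in all 8 libraries, every overlapping gene as a partner, and an overlap of at least 200 bases.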

Additional observations from a re-analysis of the deposited data

Results flagged for a closer look

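In 9 of 92 groups of 4 libraries, over *Ezh2*, the transcripts named by rule and their partners, 1 library lay far from the other 3 of its group. Chance gives about 1 in 20 groups, or 4.6 of 92. In 9 other genes with listed values, some chosen for those values, 4 of 18 groups were flagged, and no chance count applies to them. Flagged in mutant library 3 were *Dnm3os* at 59.5 (others 32.5 to 34.4), *Rab10os* at 21.8 (others 13.6 to 14.1), *4833422C13Rik* at 9.82 (others 6.54 to 6.64), *Gm37422* at 14.7 (others 8.18 to 8.92) and *Gal3st4* at 19.8 (others 4.12 to 4.33). In mutant library 2 *Gm27177* was at 1.79 (others 13.3 to 18.8). In control library 4 *1700052K11Rik* was at 16.1 (others 12.2 to 12.5) and *Pcdhgb6* at 15.6 (others 21.3 to 21.7). In control library 2 *Igf2os* was at 5.02 (others 3.94 to 4.03), *Dlx6* at 46.7 (others 42.0 to 42.7) and *Xist* at 0.373 (others 518 to 767). *Dlx6* was at 59.5 (others 47.4 to 48.8) in mutant library 1, and *Ezh2* at 55.0 (others 38.3 to 39.6) in control library 1.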

How the results depend on the processing

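Of the 60 transcripts limma called 3 higher with all libraries and a pseudocount of 1. It called the same 3 with a pseudocount of 5 and without the trend. It called 2 (*Gm29100* and *Igf2os*, but not *Tbx3os1*) with a pseudocount of 0.1 and with no pseudocount, 0 with no filter (11 at an unadjusted p under 0.05), 0 of 18 with a filter at 10 (3 unadjusted, 10 positive), which the 3 did not pass, 1 (*Gm29100*) with median-of-ratios size factors and 0 with quantile normalization (9 unadjusted). With an enamel covariate it called 0 higher and 1 lower (14 unadjusted). Of transcripts at the level in all 8 libraries it called 1. Leaving out 1 library gave 0 to 2. Overlapping genes called lower, 1 at first, were 0 with a filter at 10, 2 with quantile normalization, 2 with the enamel covariate and 1 to 2 with 1 library left out, and those called higher, 2 at first, were then 0 to 4. Without the trend 3 were called higher, *Folr2* added, and with a pseudocount of 5 the counts stayed at 2 higher and 1 lower. They also stayed at 2 and 1 of 87 with every overlapping gene as a partner, and at 2 and 1 of 54 with an overlap of at least 200 bases, where limma called 0 and 0 ratios (9 and 9 unadjusted). Pairs with a called ratio, 0 at first (9 unadjusted in limma), were 1 with a pseudocount of 0.1, 1 with quantile normalization and 1 with no pseudocount. Leaving out the 3 libraries of most enamel RNA, and no pseudocount, were chosen after seeing the data. Without those 3 libraries limma called 0 transcripts (7 unadjusted) and 0 overlapping genes in either direction (12 unadjusted), with fewer samples in the fit. *Ezh2* was at -0.64 with the enamel covariate. Fewer samples or other genes tested are part of these settings, and other causes were not tested.

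With the replicate block limma called 0 of the 60 transcripts (7 unadjusted) and 0 overlapping genes higher or lower (15 unadjusted), and over all genes 64 higher and 9 lower. The block leaves the differences as they were, with a median of 0.08 for the 60 transcripts in both fits. No source used here pairs samples by number, and deviations of same-numbered samples correlated at -0.34, -0.08, 0.22 and -0.43.

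Some small differences changed sign, and the cause was not tested. *6330403L08Rik* was at -0.0166 with median-of-ratios size factors, -0.0234 with quantile normalization and -0.14 with the enamel covariate, and *Ints2* at -0.0152, -0.00722 and -0.0374. *Tbx3* was at -0.0925 with the enamel covariate. Without the 3 libraries of most enamel RNA *Rab10os* was at -0.0679, *Gm20632* at -0.0634, *4833422C13Rik* at -0.16, *Gm28370* at -0.0543 and *Pcdhgb6* at 0.00102. With 1 library left out *Dlx6os1* ran from -0.28 to 0.0421, *Rab10os* from -0.00138 to 0.21, *6330403L08Rik* from -0.11 to 0.17, *Gm20632* from -0.0475 to 0.17, *Ints2* from -0.0363 to 0.0499 and *Pcdhgb6* from -0.18 to 0.14. In a tally over most of the genes named here, 817 values kept their direction and side of the threshold. Another 63 lost a call, 4 gained one and 30 changed sign. The tally does not hold every gain, since *Ezh2*, *Gm4524*, *P3h2*, *Tcf7* and *Twist2* were each called in 1 alternative only. It also counts *A830082K12Rik* and *Gm45441*, described below.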

Other observations

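Below the level, 130 more antisense transcripts passed the filter on low values. Of these limma called 2 higher in mutant molars (1.54%, against 1.56% of all genes) and 0 lower, with 12 higher and 1 lower at an unadjusted p under 0.05. Over all genes 8.27% were higher and 4.87% lower at that unadjusted level. Since any 4 libraries sufficed for the filter, a transcript could enter through its higher group, so these counts are not a test against all genes. The called transcripts are named after their values were seen. *A830082K12Rik*, at chr13:78198017-78279391 on the plus strand, was at 1.29, 0.979, 0.877 and 0.994 in control libraries and 2.22, 3.40, 2.83 and 3.23 in mutant libraries. *Gm45441*, at chr7:45830895-45835249 on the plus strand, was at 0.553, 0.575, 0.558 and 0.563 in control libraries and 1.66, 1.94, 1.44 and 1.54 in mutant libraries. Both passed the filter through the mutant libraries, where they are high, with 1 and 0 control libraries at a value of 1 or more. With no filter limma called both as well, with differences of 0.94 and 0.76 and adjusted p of 0.00680 and 0.00244. Neither was called without the 3 libraries of most enamel RNA (adjusted p 0.236 and 0.170 in limma) or with the replicate block. Without those 3 libraries mutant values of *A830082K12Rik* ran from 2.22 to 3.40, against 0.979 and 1.29 in control libraries. Those of *Gm45441* ran from 1.54 to 1.94, against 0.553 and 0.575. The block leaves each difference as it was.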
